A study of Homo sapiens with 8 samples.

Results

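The comparison described here set 2 rice extracts against each other in HT-29 cells, an established human colorectal adenocarcinoma line. It used the 2 libraries labelled 74 3NP extract and the 2 labelled 76 3P extract, chosen by their labels, 4 of the 8 libraries in the series. Each extract was sampled once at 24 h and once at 48 h, and the libraries were compared at matched times. The remaining 4 libraries were cells labelled control and cells given 5-fluorouracil (5-FU), a drug against thymidylate synthase, at the same times.

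Per the labels, cells grew in RPMI-1640 medium with fetal bovine serum and received the rice extracts MRQ 74 and MRQ 76 at their IC50, a standard measure of inhibitory potency. The numbers of the sample names were taken to point to these rice lines. The labels do not say what 3NP and 3P stand for, nor the doses or the solvents. One label field names a plant extract as the treatment of every sample, controls included, so groups were taken from the titles. Nothing in the labels ties libraries to separate cultures, so every p-value measures only the spread between these libraries. With 1 library per treatment and time, that spread is how treatment differences varied between 24 h and 48 h. A true change of a treatment effect between the times is therefore counted as noise. In bulk RNA, fewer cells of a kind and less RNA per cell cannot be told apart.

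Stressed cells run the integrated stress response, in which kinases slow protein synthesis while the transcription factor ATF4 is translated and switches on genes for amino acid supply, CHOP (DDIT3) and feedback. Unfolded proteins in the endoplasmic reticulum (ER) feed into it and also raise chaperones through XBP1 and ATF6. Dividing cells load MCM helicases onto DNA before S phase under the control of E2F factors. Colon epithelial tumor lines such as HT-29 also express keratins, chemokines and antimicrobial proteins that respond to inflammatory and differentiation signals.

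The cells are labelled enterocytes. None of 10 mature enterocyte markers passed the filter on low values, and the highest of them, ANPEP, reached a level of 0.275 FPKM in any library. FPKM is the number of fragments scaled to gene length and library depth. Of 11 colon epithelium markers 8 passed the filter, and their levels were unlike. KRT8 was between 480 and 877 FPKM in the extract libraries and CDX2 between 2.34 and 6.24. CDX1 and GPA33 stayed at 0.355 FPKM or less and were not tested. Markers of endothelium (4) and red cells (2) all stayed below the filter, as did 4 of 5 fibroblast markers and 3 of 5 leukocyte markers. The exceptions were COL1A1, CD14 and LYZ, of which LYZ, the lysozyme gene, stood at 215 to 601 FPKM in the extract libraries. The leukocyte marker PTPRC was at 0.007 FPKM or less and COL1A2 at 0 in all 8 libraries.

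The 4 extract libraries held 18141663 to 28048517 reads on genes. The 76 3P 48 h library stood apart. It held reads on 26712 genes, the others on 23111 to 24665 genes, and 6.83% of its reads came from mitochondrial genes, against 2.96% to 5.52% elsewhere. The part of these features in the results below was not tested. All differences below are 74 3NP minus 76 3P on the log2(FPKM + 1) scale, so a positive value means higher with the 74 3NP extract, and the scale understates changes of low genes. The 24 h difference does not use the 76 3P 48 h library, and both times are therefore given for each result.

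Of 13388 genes tested, limma called 0 (0%) at a Benjamini-Hochberg adjusted p under 0.05. At an unadjusted p under 0.05 there were 1726 genes, 980 higher with the 74 3NP extract and 746 higher with the 76 3P extract. Limma voom on the reads recovered from the FPKM values called 15, and limma without the 76 3P 24 h library called 79. The lowest adjusted p was 0.058, shared by 5 genes, among them ATF3, LAMP3, ANXA10 and TNS4. With 1 library per extract and time, the fit had 3 residual degrees of freedom. No gene below therefore passed the limma test, and values are given as differences with their SE over n = 2 libraries per extract.

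As a description of size, genes at least 1.5-fold apart in the same direction at both times were counted. The 74 3NP extract was higher for 308 genes (2.30% of those tested), and the 76 3P extract for 210 (1.57%). Scaled to total reads, the split was 227 and 285. Protein-coding genes made up 250 of the 308 and 117 of the 210, and long non-coding RNAs 22 and 34. For the 308 genes the median difference from control was 0.34 with the 74 3NP extract and -0.54 with the 76 3P extract. Of these genes, 207 lay within 1.5-fold of control with the 74 3NP extract, and 143 were at least 1.5-fold below control with the 76 3P extract. For the 210 genes the medians were -0.31 and 0.72, and 129 were at least 1.5-fold above control with the 76 3P extract. Both extracts share the same control libraries, so these values are set side by side only.

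The extracts were farther apart at 48 h than at 24 h. The SD of the difference over all genes tested was 0.415 at 24 h and 0.571 at 48 h, and the median was -0.01 and 0.05. At least 1.5-fold higher at 24 h were 990 genes with the 74 3NP extract (7.39%) and 581 with the 76 3P extract (4.34%). At 48 h there were 1832 (13.7%) and 1537 (11.5%). The 76 3P libraries also differed more between the times, with an SD of 0.537 for 48 h minus 24 h, against 0.365 for the 74 3NP extract and 0.291 for the controls. The 5-FU libraries were close to the 76 3P extract in this, with an SD of 0.517. Each single-time difference is 1 library against 1 library and was not tested.

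**Figure D1:**
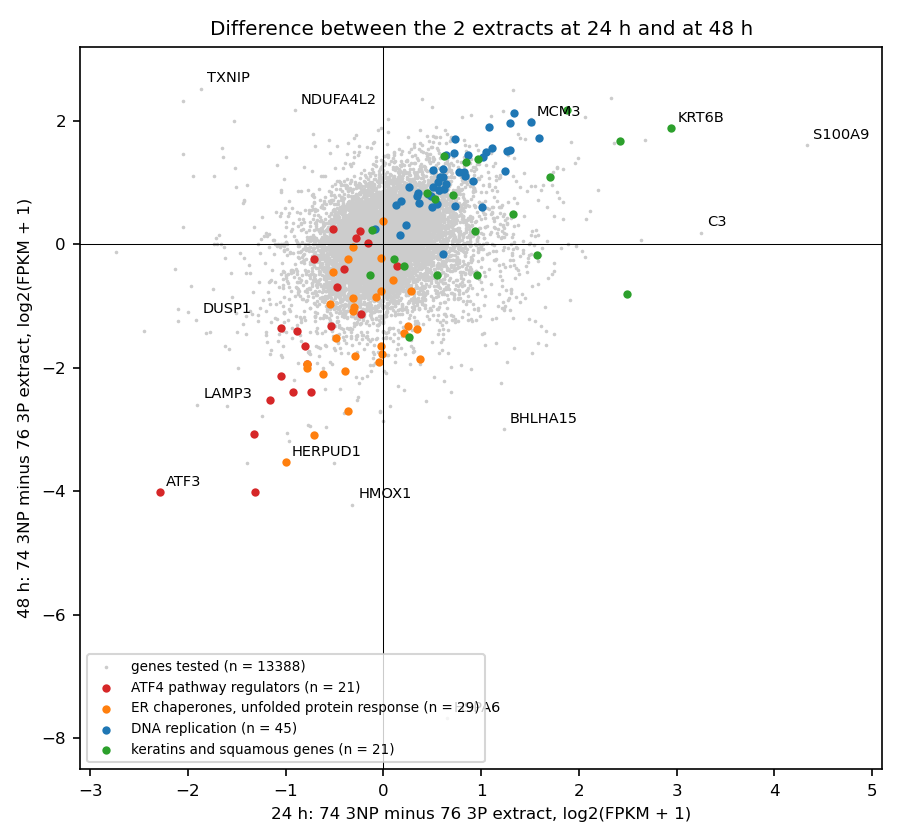
Each point is a gene, with the log2(FPKM + 1) difference between the extracts at 24 h on the x axis and at 48 h on the y axis, and 4 gene lists colored. ATF4 and ER genes lie below 0 on the y axis in most cases, DNA replication genes lie up and to the right, and HSPA6 at -7.67 is the lowest point.

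Genes of the integrated stress response were lower with the 74 3NP extract and higher with the 76 3P extract. Of 23 ATF4 pathway regulators written down, 21 passed the filter on low values. At both times 11 of the 21 were at least 1.5-fold higher with the 76 3P extract and 0 with the 74 3NP extract, against 1.57% and 2.30% of all genes. The list median was -0.74 at 24 h and -1.35 at 48 h. ATF4 itself, whose control is mostly translational, stood at 141 and 117 FPKM with the 74 3NP extract, 186 and 155 with the 76 3P extract and 177 and 175 in the controls, each at 24 h and 48 h in that order. Its mRNA thus differed by -0.40 at both times (limma SE 0.21, adjusted p 0.467).

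ATF3 (ENSG00000162772, GRCh38 chromosome 1, 212565334 to 212620777), a stress-induced transcription factor, had the largest mean difference among these. Its FPKM was 3.16 at 24 h and 3.67 at 48 h with the 74 3NP extract, against 19.3 and 74.5 with the 76 3P extract and 6.25 and 8.97 in the controls. Both 76 3P libraries were above all control and 74 3NP libraries, and both 74 3NP libraries were below the controls. The mean difference was -3.15 (limma SE 0.37, adjusted p 0.058). In reads per length and depth the 76 3P library was 6.13 times higher at 24 h (exact 95% interval 5.37 to 7.02, counting error only) and 20.3 times higher at 48 h (18 to 23).

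DDIT3 (chromosome 12, 57516588 to 57521737), which encodes CHOP, a factor tied to stress-induced cell death, stood at 8.71 and 5.69 FPKM with the 74 3NP extract and at 23.1 and 106 with the 76 3P extract. The controls held 16.6 and 9.36 FPKM, between the extracts at both times. The differences were -1.31 at 24 h and -4.00 at 48 h, with a mean of -2.66 (limma SE 0.65, adjusted p 0.193). PPP1R15A, which encodes GADD34, the phosphatase subunit that restores translation, stood at 24 and 13.6 FPKM against 61.4 and 121. The controls had 45.6 and 33.4 FPKM of PPP1R15A, again between the extracts.

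TRIB3, a pseudokinase that ATF4 and CHOP induce, was at 76.2 and 35 FPKM with the 74 3NP extract, 146 and 188 with the 76 3P extract and 116 and 102 in the controls. CHAC1, a glutathione-degrading enzyme, was at 24.6 and 9.43 FPKM against 56.2 and 58.7, with controls at 21.8 and 24. For both genes the 74 3NP level was lower at 48 h than at 24 h, while the 76 3P level was higher. DDIT4, which encodes the mTORC1 inhibitor REDD1, differed in another way. Its level was above the controls (33 and 55.3 FPKM) with both extracts, at 74.7 and 72.4 FPKM with the 74 3NP extract and 131 and 229 with the 76 3P extract.

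The growth arrest genes of the GADD45 family followed the same direction. GADD45A was at 25.4 and 23.2 FPKM with the 74 3NP extract and 53.6 and 105 with the 76 3P extract (mean difference -1.59, limma SE 0.27, adjusted p 0.117). GADD45B was at 5.08 and 6.1 FPKM against 9.18 and 36.1. GADD45G was at 2.66 and 4.28 FPKM against 6.01 and 26.2. For all 3 genes the difference was larger at 48 h than at 24 h.

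ER chaperone and unfolded protein response genes separated mainly at 48 h. Of 31 written down, 29 passed the filter. At 24 h 5 of the 29 were at least 1.5-fold higher with the 76 3P extract, and at 48 h 23 were, against 4.34% and 11.5% of all genes, with 0 in the other direction at either time. At both times the count was 5, and the list median was -0.30 at 24 h and -1.36 at 48 h. HERPUD1 (chromosome 16, 56932142 to 56944864), a member of the machinery that removes misfolded ER proteins, stood at 11 and 10.7 FPKM with the 74 3NP extract, 23.1 and 134 with the 76 3P extract and 14.8 and 16.5 in the controls. Its mean difference was -2.26 (limma SE 0.53, adjusted p 0.179).

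HSPA5, which encodes the main ER chaperone BiP, was at 264 and 213 FPKM with the 74 3NP extract. With the 76 3P extract it was at 340 FPKM at 24 h and 1386 at 48 h, against 192 and 232 in the controls. Only the 76 3P 48 h library lay far from the other 5 of these, and the differences were -0.36 and -2.70. DNAJB9, an ER co-chaperone, was at 5.27 and 6.18 FPKM against 9.25 and 59.7, with controls at 8.93 and 7.79. DNAJC3, another co-chaperone, differed by -0.39 at 24 h and -2.05 at 48 h.

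Genes of ER quality control showed the same order. SEL1L, an adaptor of ER-associated degradation, stood at 7.86 and 6.13 FPKM with the 74 3NP extract and 14.2 and 27.7 with the 76 3P extract. ERN1, the gene of the stress sensor IRE1, stood at 4.07 and 2.34 FPKM against 6.79 and 13.3. HYOU1, a chaperone of the HSP110 kind, differed by -0.29 at 24 h and -1.81 at 48 h. In each case the difference at 48 h was more than 1 log2 unit larger than at 24 h.

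**Figure D2:**
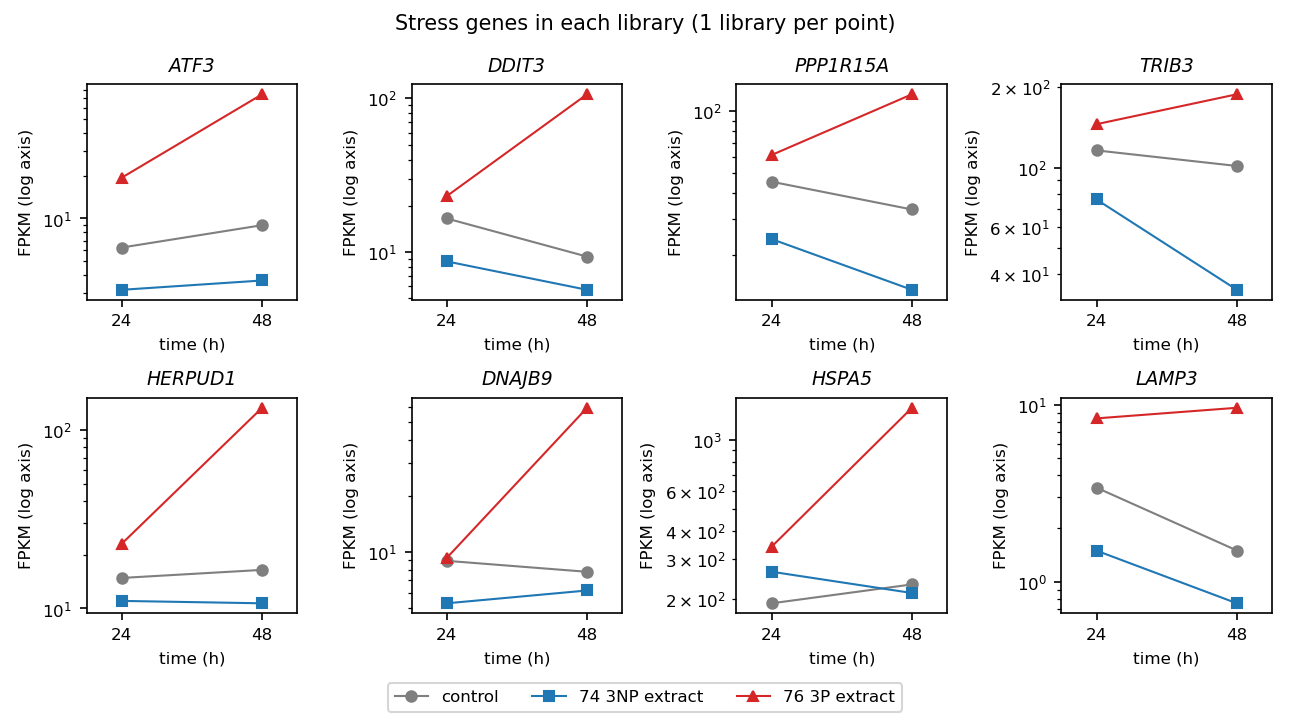
Levels in FPKM on log axes for 8 stress genes at 24 h and 48 h, with 1 point per library and lines joining the 2 times of a treatment. The 76 3P points are highest at both times in every panel, and HERPUD1 goes from 23.1 to 134 FPKM between the times.

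The promoter of HERPUD1 is shown because it belongs to the ER gene with the largest mean difference and holds a match to the amino acid response element core, the sequence that ATF4 dimers recognise. It covers 250 bases before and 50 after a RefSeq start at chr16:56931892-56932191 (GRCh38.p14, plus strand), and capitals mark TTGCATCA.
HERPUD1: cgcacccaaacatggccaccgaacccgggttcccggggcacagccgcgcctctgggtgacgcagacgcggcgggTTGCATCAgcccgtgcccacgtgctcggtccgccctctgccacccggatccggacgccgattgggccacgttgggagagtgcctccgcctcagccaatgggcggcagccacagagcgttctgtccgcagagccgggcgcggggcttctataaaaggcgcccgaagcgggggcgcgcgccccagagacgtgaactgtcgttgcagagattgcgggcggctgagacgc
TTGCATCA was searched on both strands in 1 RefSeq promoter per gene, the one nearest the gene start in the authors' table, and 9320 tested genes had one. It was present in 0.494% of these, in 5 of the 106 promoters found for genes higher with the 76 3P extract at both times (CHAC1, HERPUD1, NCOA7, PRSS1 and PRSS2), and in 0 of 200 for genes higher with the 74 3NP extract. The ER stress element, CCAAT and CCACG 9 bases apart, was found in 0.129% of the 9320 and in 5 of 27 promoters of the ER list, those of HSPA5, XBP1, CALR, HSP90B1 and CRELD2. It was found in 0 of the 106 promoters of genes higher with the 76 3P extract at both times, and TTGCATCA in 1 of 18 promoters of the ATF4 list. Only this spacing of CCAAT and CCACG was searched, so a promoter without a match, HERPUD1 included, may hold another form of the element. TGACGTCA and the E2F site were searched in the same way, and such matches describe sequence and do not show that a factor binds there. The promoters of ATF3, DDIT3 and DNAJB9, picked by the same rule of largest mean difference, held 0 matches to any motif searched and are not shown. Over all 35116 promoters in the reference table the shares were 0.866% for TTGCATCA and 0.0769% for the ER stress element.

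Several amino acid supply genes, which ATF4 controls, were also higher with the 76 3P extract. Of 22 written down, 20 passed the filter, and 5 of the 20 were at least 1.5-fold higher with the 76 3P extract at both times, against 1.57% of all genes, and 0 with the 74 3NP extract. SLC7A11, the cystine transporter gene, was at 17.3 and 4.34 FPKM with the 74 3NP extract, 33.4 and 23.5 with the 76 3P extract and 26.1 and 18.1 in the controls. ASNS, asparagine synthetase, stood at 2.75 and 0.727 FPKM against 5.49 and 5.91. CTH, the enzyme that makes cysteine from cystathionine, differed by -0.76 and -1.75. Among the extract libraries these genes were lowest at 48 h with the 74 3NP extract, below the 48 h control for all 3.

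Of 38 aminoacyl-tRNA synthetase symbols written down, 20 were analysed here and all 20 were tested. At 48 h 9 of them were at least 1.5-fold higher with the 76 3P extract, against 11.5% of all genes, and at 24 h 1 was, near the 4.34% of all genes. AARS1, alanyl-tRNA synthetase, was at 123 and 67.1 FPKM with the 74 3NP extract and 118 and 234 with the 76 3P extract, so its difference of 0.05 at 24 h became -1.79 at 48 h. VARS1, valyl-tRNA synthetase, lay the other way, at 50.7 and 36.7 FPKM against 30.5 and 25.8. The list was therefore not uniform in direction.

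Cytosolic heat shock genes differed at 48 h and hardly at 24 h. Of 17 tested (18 written down), 10 were at least 1.5-fold higher with the 76 3P extract at 48 h, against 11.5% of all genes, and 1 at 24 h, near the 4.34% of all genes. HSPA6, a strictly inducible HSP70 gene, stood at 1.2 and 0.389 FPKM with the 74 3NP extract, and at 0.404 FPKM at 24 h and 282 FPKM at 48 h with the 76 3P extract. The control, 5-FU and other extract libraries held 0.297 to 1.76 FPKM of it, so the 76 3P 48 h library was alone in its level. HSPA1A was at 74.6 and 69.2 FPKM against 71.3 and 428, and HSPA1B at 60.4 and 49.4 against 61.8 and 330. These 2 genes are near-identical, and how reads were split between them is uncertain. DNAJB1, their co-chaperone, was at 61.3 and 57.7 FPKM against 69.1 and 257.

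HMOX1, which encodes the heme-degrading enzyme heme oxygenase 1, had the same time course. It was at 11.4 and 6.94 FPKM with the 74 3NP extract and 14.4 and 147 with the 76 3P extract, with controls at 12.4 and 10.6. Of 26 tested NRF2 antioxidant genes (27 written down), which answer oxidants and electrophiles, 11 were at least 1.5-fold higher with the 76 3P extract at 48 h, against 11.5% of all genes, and 3 with the 74 3NP extract. The share over all genes for the 3 was 13.7%. At 24 h the counts were 2 and 1, close to the 4.34% and 7.39% of all genes. At both times 2 (SLC7A11 and OSGIN1) were higher with the 76 3P extract, against 1.57% of all genes. TXN, the thioredoxin gene, was higher with the 74 3NP extract, at 364 and 327 FPKM against 243 and 185.

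CYP1A1, the detoxifying enzyme that the aryl hydrocarbon receptor induces, was near 1 FPKM in the controls (0.932 and 0.988) and higher with both extracts. It stood at 23.8 and 32.9 FPKM with the 74 3NP extract and 17.7 and 81.8 with the 76 3P extract. The difference of 0.40 at 24 h and -1.29 at 48 h had opposite signs (limma SE 0.44 for the mean, adjusted p 0.711). CYP1B1, another target, was at 22 and 26.2 FPKM against 21.7 and 27.9, with controls at 9.09 and 9.06, and its mean difference was -0.03. ALDH3A1, an aldehyde dehydrogenase of the same gene battery, was the member at least 1.5-fold apart at both times, at 30 and 30.4 FPKM against 11.3 and 10.9. AHRR and CYP1A2 were the 2 of 10 members not tested.

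Some metallothioneins, small zinc-binding proteins, were higher with the 74 3NP extract. MT2A was at 78.1 and 87.1 FPKM with the 74 3NP extract and 44.8 and 48.8 with the 76 3P extract, with controls at 50.4 and 38.8. MT1E was at 41.9 and 56.3 FPKM against 25.7 and 25.9. Of 9 tested genes on the list (12 written down) 3 were at least 1.5-fold higher with the 74 3NP extract at both times, against 2.30% of all genes, while MT1F and MTF1 differed by -0.57 and -0.50 at 48 h. The family has close copies, so single members are uncertain.

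DNA replication genes were higher with the 74 3NP extract, where they lay near the control, than with the 76 3P extract, where they lay below it. All 45 replication genes written down were tested. At both times 25 were at least 1.5-fold higher with the 74 3NP extract, against 2.30% of all genes, and 0 with the 76 3P extract. The counts were 26 at 24 h and 41 at 48 h, against 7.39% and 13.7% of all genes, and the list median was 0.62 at 24 h and 1.03 at 48 h. Against control the list median was -0.14 with the 74 3NP extract and -0.98 with the 76 3P extract.

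The MCM2 to MCM7 genes encode the helicase that is loaded onto origins. MCM3 (chromosome 6, 52264014 to 52284881) was at 44.5 and 45.9 FPKM with the 74 3NP extract, 15 and 10.9 with the 76 3P extract and 41.2 and 48.4 in the controls. The 74 3NP and control libraries overlapped, and both 76 3P libraries were below them. The mean difference was 1.74 (limma SE 0.23, adjusted p 0.0738). MCM4 stood at 28.9 and 30.1 FPKM against 10.8 and 6.11, MCM5 at 9.36 and 9.9 against 3.21 and 1.78, MCM2 at 38.2 and 37.8 against 15 and 12.4, and MCM6 at 25.4 and 26.8 against 11.2 and 8.4. In all 5 genes the 76 3P level was lower at 48 h than at 24 h, while the 74 3NP level moved by less than 1.1-fold.

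UHRF1, which maintains DNA methylation behind the fork, was at 25.8 and 17.1 FPKM with the 74 3NP extract, 7.89 and 4.44 with the 76 3P extract and 21.5 and 24.9 in the controls. FEN1, the flap nuclease of lagging strand synthesis, stood at 50.3 and 57.1 FPKM against 23.3 and 14.5. LIG1, the ligase that joins the fragments, stood at 6.47 and 8.71 FPKM against 2.1 and 2.4. ORC1, a subunit of the origin recognition complex, differed by 1.05 at 24 h and 1.51 at 48 h. The direction was the same for origin, helicase, polymerase and ligase genes, since ORC1, CDT1, CDC45, PCNA, POLA1, POLD1 and POLE were all among the 25.

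**Figure D3:**
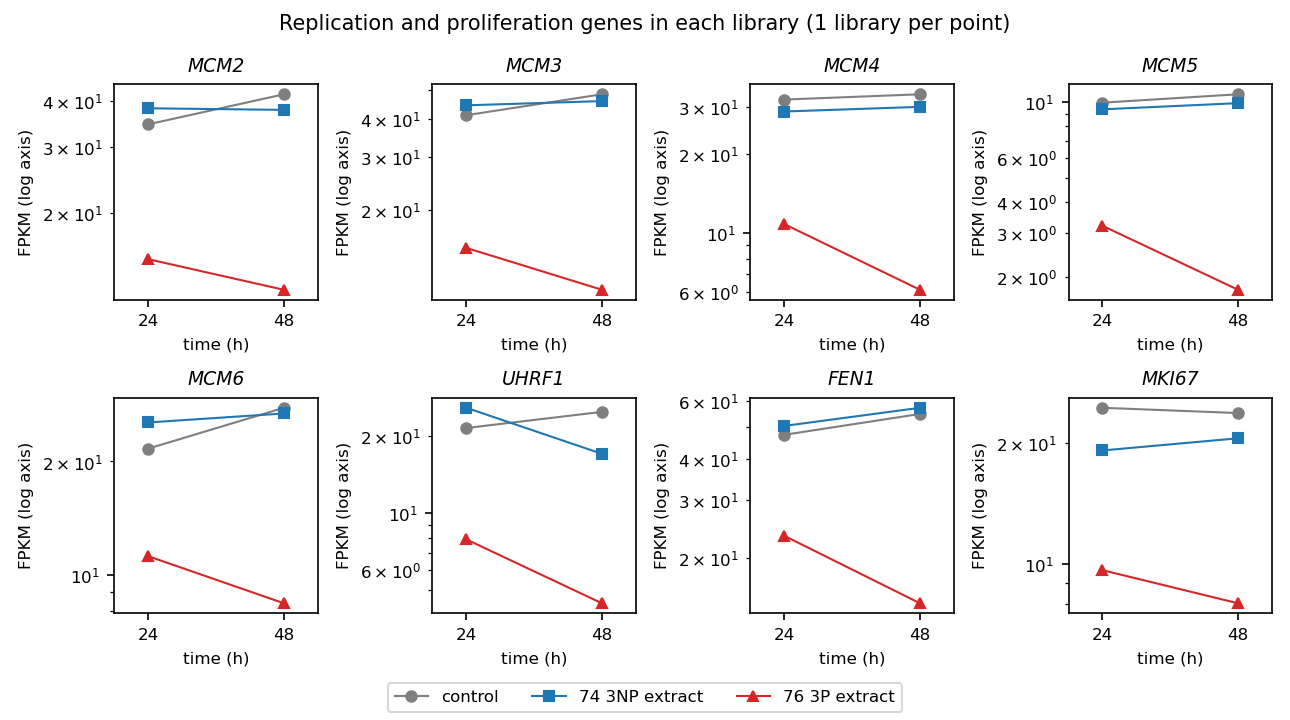
Levels in FPKM on log axes for 8 replication and proliferation genes at 24 h and 48 h, with 1 point per library. In every panel both 76 3P points lie below the control and 74 3NP points of the same time, as for MCM3 at 15 and 10.9 FPKM.

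Promoters of 2 replication genes with an E2F site are shown because the site can be read against the shares given after them. The window of MCM3 is chr6:52284693-52284992 (GRCh38.p14, minus strand) and that of UHRF1 is chr19:4909251-4909550 (plus strand), both from RefSeq, with 250 bases before and 50 after the start. Capitals mark TTTCCCGC or its reverse complement.
MCM3: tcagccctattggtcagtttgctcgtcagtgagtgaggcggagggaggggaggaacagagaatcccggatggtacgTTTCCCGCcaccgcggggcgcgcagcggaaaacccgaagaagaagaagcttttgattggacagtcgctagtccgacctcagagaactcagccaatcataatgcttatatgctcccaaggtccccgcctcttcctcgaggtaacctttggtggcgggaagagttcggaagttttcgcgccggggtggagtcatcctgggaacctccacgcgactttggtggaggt
UHRF1: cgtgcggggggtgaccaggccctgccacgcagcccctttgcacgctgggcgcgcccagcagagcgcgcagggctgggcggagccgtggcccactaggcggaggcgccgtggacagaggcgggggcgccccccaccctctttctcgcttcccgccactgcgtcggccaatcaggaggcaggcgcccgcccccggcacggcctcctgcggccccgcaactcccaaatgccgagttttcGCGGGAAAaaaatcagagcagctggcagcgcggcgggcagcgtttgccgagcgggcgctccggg
TTTCCCGC or TTTGGCGC on either strand was found in 3.94% of the 9320 promoters of tested genes and in 2.27% of all 35116 promoters. It was found in 27 of 200 promoters (13.5%) of genes higher with the 74 3NP extract at both times, and in 4 of 106 (3.77%) of those higher with the 76 3P extract. Among 39 replication genes with a promoter in the table, 16 held it (41%), among them MCM6, MCM7, PCNA, POLA1, CDC6 and CDT1. No p-value was computed for these shares, and a gene without the match may have the site elsewhere.

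G1/S genes and the enzymes of nucleotide supply were also higher with the 74 3NP extract. All 22 were tested, and 10 were at least 1.5-fold higher with the 74 3NP extract at both times, against 2.30% of all genes, and 0 with the 76 3P extract. E2F1, the transcription factor of S phase entry, was at 30.9 and 38 FPKM with the 74 3NP extract, 16.9 and 11.7 with the 76 3P extract and 35.9 and 49.9 in the controls. TYMS, thymidylate synthase, was at 7.06 and 9.33 FPKM against 4.12 and 1.97, with controls at 12 and 14.3, so both extracts lay below the control for this gene. TK1, thymidine kinase, stood at 130 and 150 FPKM against 73.5 and 58.7.

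Genes of G2 and mitosis were nearly alike at 24 h and apart at 48 h. Of 37 tested (39 written down), 2 were at least 1.5-fold higher with the 74 3NP extract at 24 h and 35 at 48 h, against 7.39% and 13.7% of all genes. The list median was 0.14 at 24 h and 1.10 at 48 h. CCNB1, cyclin B1, was at 51.6 and 56.3 FPKM with the 74 3NP extract and 41.3 and 18.1 with the 76 3P extract, with controls at 66.7 and 53.2. TOP2A, the mitotic topoisomerase, was at 68.4 and 73.6 FPKM against 55.9 and 28.8. MKI67, the marker of cycling cells, was at least 1.5-fold apart at both times, at 19.2 and 20.5 FPKM against 9.68 and 8.01. The test of the change in difference between the times cannot be made with 1 library per extract and time.

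Of 27 tested homologous recombination and Fanconi genes, 16 were at least 1.5-fold higher with the 74 3NP extract at 48 h, against 13.7% of all genes. At 24 h 2 were, a share close to the 7.39% of all genes. BLM, a helicase, was at 4.98 and 5.68 FPKM against 2.67 and 1.99, and RMI2, its partner, at 8.69 and 13.5 against 4.28 and 3.8.

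Cell cycle inhibitors and p53 targets gave a mixed picture. CDKN1A, the gene of p21, was at 60.7 and 50.9 FPKM with the 74 3NP extract, 70.4 and 120 with the 76 3P extract and 41.4 and 38.9 in the controls, a difference of -0.21 at 24 h and -1.22 at 48 h. HT-29 cells carry mutant p53, which makes the name of the target list a label and not a measure of p53. Of 24 tested p53 target genes (26 written down), 6 were at least 1.5-fold higher with the 76 3P extract at both times, against 1.57% of all genes: SESN2, GADD45A, BBC3, PMAIP1, TNFRSF10B and TP53INP1. GADD45A and SESN2 are also on the ATF4 list, and TNFRSF10B and PMAIP1 are also known to respond to ER stress. CDK4 was higher with the 74 3NP extract, at 43.6 and 40.1 FPKM against 29.7 and 19.4.

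Among cell death genes, a few inducers were 1.5-fold apart at both times and most members were not. In the BCL2 family 14 of 19 members were tested. At both times 2 were at least 1.5-fold higher with the 76 3P extract, against 1.57% of all genes. BBC3, which encodes the death activator PUMA, was at 6.46 and 8.51 FPKM with the 74 3NP extract, 12.5 and 25.2 with the 76 3P extract and 8.75 and 13.5 in the controls. PMAIP1, which encodes NOXA, was at 4.94 and 4.04 FPKM against 8.3 and 15.1. BAX, the pore-forming member, differed by 0.12 and 0.82, and BCL2L1, the protective BCL-XL gene, by 0.11 and 0.47. TNFRSF10B, the TRAIL death receptor DR5, was the 1 of 25 tested death receptor and caspase genes past 1.5-fold at both times, at 12.1 and 8.95 FPKM against 18.9 and 49.4. A count of 1 of 25 is near the 1.57% of all genes. The caspase 9 gene, CASP9, differed by -0.12 and -0.52.

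Of 36 tested MYC and ribosome biogenesis genes (37 written down), 7 were at least 1.5-fold higher with the 74 3NP extract at both times and 1, MXD1, with the 76 3P extract, against 2.30% and 1.57% of all genes. FBL, the nucleolar methyltransferase fibrillarin, was at 102 and 100.1 FPKM against 65.6 and 54.5, with controls at 66 and 70.9. NCL, nucleolin, was at 91.1 and 89.2 FPKM against 61.3 and 47, with controls at 93.8 and 89.3. MXD1, an antagonist of MYC, was at 3.66 and 2.18 FPKM with the 74 3NP extract and 6.42 and 9.11 with the 76 3P extract.

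Mitochondrially encoded subunits differed in opposite directions at the 2 times. The list median of 13 genes was 0.39 at 24 h and -0.53 at 48 h, where the 76 3P library also held the highest share of mitochondrial reads. MT-ND5, a subunit of complex I, was at 1122 and 1094 FPKM with the 74 3NP extract and 999 and 2390 with the 76 3P extract. Proteasome subunits, which degrade tagged proteins, were alike at 24 h, with a median of 0.03, and higher with the 74 3NP extract at 48 h, with 0.47. PSMB2 was at 42.2 and 46.9 FPKM against 42.3 and 20.4. Of 17 snoRNA host genes, GAS5 was at 23.9 and 26.9 FPKM against 37.6 and 38.4, and replication-dependent histone genes had a median of -0.01 and 0.03.

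Acute phase and antimicrobial genes had medians above control with both extracts (2.13 with the 74 3NP and 1.42 with the 76 3P extract), and at 24 h most were higher with the 74 3NP extract. Only 9 of 25 passed the filter, which such genes can pass through the treated libraries alone, as SAA1 and PGLYRP4 did. The filter thus favours medians above control, and neither the medians nor the counts are used as support. At 24 h 7 of the 9 were at least 1.5-fold higher with the 74 3NP extract and 1 with the 76 3P extract, and at 48 h 2 were, with 2 the other way. The median was 1.17 at 24 h and -0.24 at 48 h. S100A9 (chromosome 1, 153357854 to 153361023), a subunit of the antimicrobial protein calprotectin, was at 63.4 and 131 FPKM with the 74 3NP extract, 2.19 and 42.2 with the 76 3P extract and 1.77 and 1.98 in the controls. At 24 h the 76 3P library was near the control, and the read ratio between the extracts was 28.9 (exact 95% interval 20.8 to 41.4). At 48 h the ratio was 3.09 (2.81 to 3.4), and the limma mean difference was 2.97 (SE 0.68, adjusted p 0.175).

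LCN2, which encodes the iron-trapping protein lipocalin 2, was at 1177 and 1098 FPKM with the 74 3NP extract, 506 and 1631 with the 76 3P extract and 200 and 242 in the controls. C3, the central complement component, was at 19.3 and 23.2 FPKM against 1.14 and 20.2, with controls at 0.155 and 0.2. LGALS1, the gene of the lectin galectin 1, was at 125 and 85.3 FPKM against 19.3 and 81.4, with controls at 11.1 and 10.2. For C3 and LGALS1 the 76 3P library at 48 h was close to the level that the 74 3NP libraries held. SAA1, an acute phase protein gene with a close copy in SAA2, was at 10.3 and 25.2 FPKM against 3.83 and 20.8. PI3, which encodes the protease inhibitor elafin, stayed apart, at 139 and 130 FPKM against 47.7 and 32.9.

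**Figure D4:**
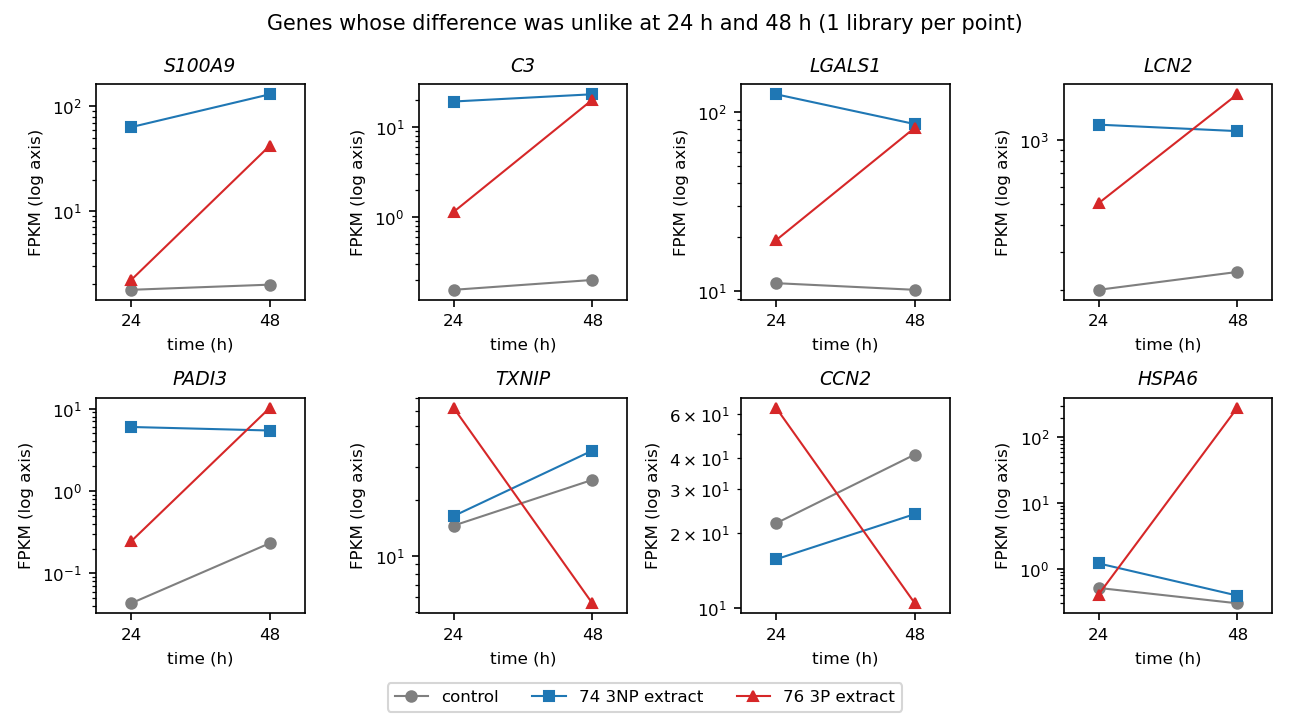
Levels in FPKM on log axes for 8 genes whose difference between the extracts was unlike at 24 h and 48 h, with 1 point per library. C3 with the 76 3P extract goes from 1.14 to 20.2 FPKM while the 74 3NP libraries hold 19.3 and 23.2, and the lines cross for LCN2, PADI3, TXNIP, CCN2 and HSPA6.

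Chemokine genes were mixed and NF-kB genes differed by time. CXCL1, a neutrophil chemokine, was at 11.6 and 12.2 FPKM with the 74 3NP extract, 4.99 and 5.86 with the 76 3P extract and 1.29 and 2.21 in the controls. It was the 1 of 16 tested chemokine genes (27 written down) at least 1.5-fold apart at both times. Over all genes 2.30% were higher with the 74 3NP and 1.57% with the 76 3P extract, so this count is near those shares. CXCL8 was at 31.7 and 46.9 FPKM against 19.2 and 40.2. Of 20 NF-kB subunit and feedback genes, 4 were at least 1.5-fold higher with the 74 3NP extract at 24 h, against 7.39% of all genes, and 11 with the 76 3P extract at 48 h, against 11.5%. NFKBIZ, an inducible co-regulator, was at 9.73 and 12.6 FPKM against 11.9 and 37, and BIRC3, an inhibitor of apoptosis, at 5.07 and 3.52 against 3.31 and 12.4. TNFAIP2 was at 109 and 98.6 FPKM against 42 and 128.

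Of 26 tested interferon-stimulated genes, 5 were at least 1.5-fold higher with the 74 3NP extract and 2 with the 76 3P extract at 24 h. The shares over all genes were 7.39% and 4.34%. At 48 h the counts were 2 and 8, against 13.7% and 11.5% of all genes. Among them IFITM2 and OAS3 were at least 1.5-fold higher with the 74 3NP extract at both times and IRF7, a regulator of interferon genes, with the 76 3P extract. Over all genes the shares at both times were 2.30% and 1.57%. IRF7 was at 8.58 and 5.59 FPKM against 14.1 and 22. None of 16 HLA class I presentation genes reached 1.5-fold at both times. HLA-B was at 38.9 and 50.5 FPKM against 18.9 and 58.9, with controls at 12.6 and 15.9. CLU, which encodes the extracellular chaperone clusterin, was the 1 of 10 tested complement genes past 1.5-fold at both times, at 4.01 and 2.96 FPKM against 8.6 and 10.4.

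Of 30 keratins and squamous genes written down, 21 passed the filter, and 8 were at least 1.5-fold higher with the 74 3NP extract at both times, against 2.30% of all genes, and 0 with the 76 3P extract. Members such as KRT23 reached 1 FPKM with the 74 3NP extract alone and passed the filter through it, so this count is not used as support. KRT6B (chromosome 12, 52446651 to 52452146), a keratin of stressed and wounded epithelium, was at 10.9 and 5.08 FPKM with the 74 3NP extract, 0.546 and 0.647 with the 76 3P extract and 0.62 and 1.12 in the controls. The 76 3P libraries were at the control level, and only the 74 3NP libraries were far from it. The mean difference was 2.41 (limma SE 0.32, adjusted p 0.0738), and the 76 3P reads numbered 37 and 39. KRT6B has close copies in KRT6A and KRT6C, which makes its level uncertain.

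KRT23, a keratin of differentiating colon cells, was at 6.2 and 4.67 FPKM against 0.35 and 0.774, with controls at 0.712 and 0.57. SPRR1B, a protein of the squamous cell envelope, was at 5.68 and 6.88 FPKM against 0.823 and 0.741. The simple-epithelium keratin KRT19 was at 445 and 454 FPKM against 248 and 179, with controls at 302 and 293, so for KRT19 the control lay between the extracts. KRT8 and KRT18, the main HT-29 keratins, differed by 0.53 and 0.74 and by 0.45 and 0.84. TNS4, a focal adhesion protein, stood at 32.4 and 25.2 FPKM against 5.5 and 7.37, with controls at 16.1 and 11.5 (limma SE of the mean difference 0.24, adjusted p 0.058).

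At both times 1 of 10 tested annexins and 3 of 12 tested S100 genes were at least 1.5-fold higher with the 74 3NP extract. The share over all genes was 2.30%. Of the 3, S100A3 was at 0.657 and 0.26 FPKM in the controls and passed the filter through treated libraries alone. ANXA3, ANXA6 and ANXA9 differed in sign between the times. ANXA10 (chromosome 4, 168092537 to 168187736), an annexin of gastric-type epithelium, was at 8.03 and 4.84 FPKM with the 74 3NP extract and 1.17 and 0.395 with the 76 3P extract. The controls, at 10.9 and 4.09 FPKM, were close to the 74 3NP libraries, and the mean difference was 2.06 (limma SE 0.23, adjusted p 0.058). S100A6 was at 541 and 542 FPKM against 285 and 282, with controls at 447 and 360. ANXA6 crossed between the times, at 8.27 and 9.01 FPKM against 1.81 and 13.

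Differentiation and junction genes split by member. SPDEF, a transcription factor of goblet cells, was at 18.4 and 15.1 FPKM with the 74 3NP extract, 6.12 and 3.95 with the 76 3P extract and 13.5 and 14.2 in the controls. The mucin genes MUC2, MUC5AC and MUC5B did not pass the filter, and 9 of 24 goblet genes did. CLDN2, the claudin of leaky epithelium, was at 5.49 and 4.13 FPKM against 1.27 and 0.246, with controls at 7.27 and 7.75, while CLDN7 was lower with the 74 3NP extract, at 77.2 and 77.4 against 113 and 118. CEACAM1, an adhesion molecule of the CEA family, was at 7.01 and 11.1 FPKM against 2.79 and 5.1. TSPAN8, a tetraspanin, was at 5.47 and 17 FPKM against 5.25 and 3.38, below the controls (19.9 and 22.5) in all 4 extract libraries.

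Among matrix genes, CEMIP and MMP7 were at least 1.5-fold higher with the 74 3NP extract at both times. CEMIP (chromosome 15, 80779343 to 80951776), which encodes a hyaluronan-degrading protein, was at 10.7 and 12.9 FPKM with the 74 3NP extract, 1.33 and 1.68 with the 76 3P extract and 7.04 and 7.7 in the controls. The mean difference was 2.35 (limma SE 0.33, adjusted p 0.0808). MMP7, matrilysin, was at 14.9 and 5 FPKM against 3.79 and 1.66. SNAI1, a repressor of E-cadherin, differed in sign between the times, at 5.79 and 5.31 FPKM against 3.21 and 32. Of 36 genes on the mesenchymal and matrix list 23 passed the filter, and VIM, ZEB1 and ZEB2 did not.

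Of 22 tested immediate early genes (25 written down), the fast targets of growth and stress signals, 6 were at least 1.5-fold higher with the 76 3P extract at both times, against 1.57% of all genes, and 0 with the 74 3NP extract. DUSP1, a phosphatase that switches off MAP kinases, was at 18.5 and 24.5 FPKM with the 74 3NP extract, 72.6 and 58.3 with the 76 3P extract and 19.6 and 32.9 in the controls. JUN, a subunit of AP-1, was at 77 and 98.5 FPKM against 178 and 209, with controls at 91 and 159. KLF4, a differentiation factor, was at 7.49 and 4.5 FPKM against 16.4 and 16.2. Unlike the ER genes, DUSP1 and ZFP36, an mRNA-destabilising protein, differed at least as much at 24 h (-1.92 and -1.34) as at 48 h (-1.22 and -1.13).

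Of 10 tested genes of the EGF receptor family and its ligands, 3 were at least 1.5-fold higher with the 76 3P extract at 48 h and 1 at 24 h. The shares over all genes were 11.5% and 4.34%. TGFA, ERBB2 and EGFR differed by -0.21, 0.26 and -0.18 at 48 h. HBEGF, a ligand of the EGF receptor, was at 3.4 and 1.8 FPKM against 6.06 and 9.66. AREG, amphiregulin, was at 77 and 58.5 FPKM against 71.1 and 222, and EREG, epiregulin, at 30 and 16.8 against 19.3 and 81.4. Among feedback genes of the MAP kinase pathway, ETV4 was the 1 of 17 past 1.5-fold at both times, against 2.30% of all genes. It was at 39.6 and 37.8 FPKM against 25.9 and 23.9. Of 16 tested Wnt targets, 2 were at least 1.5-fold higher with the 74 3NP extract at both times, against 2.30% of all genes. At 48 h 5 were higher with it and 2 with the 76 3P extract, against 13.7% and 11.5% of all genes. The count of 2 at 48 h is near that share. BAMBI, a decoy receptor, differed by -0.58 and -1.05. EPHB2, a receptor of crypt base cells, was at 12.6 and 10 FPKM against 6.22 and 5.14, with controls at 4.2 and 5.48. AXIN2, the feedback inhibitor of the pathway, differed by 0.49 and 1.16.

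Of 30 tested glycolysis and hypoxia genes, 13 were at least 1.5-fold higher with the 74 3NP extract at 48 h and 3 at 24 h, against 13.7% and 7.39% of all genes. With the 76 3P extract 2 were higher at 48 h and 4 at 24 h, against 11.5% and 4.34% of all genes. Of 23 tested genes of cholesterol synthesis, 8 were higher with the 74 3NP extract and 2 with the 76 3P extract at 48 h. The shares over all genes were 13.7% and 11.5%. At 24 h the counts were 2 and 1, close to the 7.39% and 4.34% of all genes. FASN, fatty acid synthase, was at 58.9 and 58.7 FPKM with the 74 3NP extract and 29.9 and 23.1 with the 76 3P extract, with controls at 40.8 and 32.1. CA9, a carbonic anhydrase of hypoxic cells, was at 8.68 and 33.4 FPKM against 5.24 and 8.53, while VEGFA, the angiogenic factor, was higher with the 76 3P extract, at 8.97 and 9.02 against 14.7 and 21.9. PKM, pyruvate kinase, was at 263 and 341 FPKM against 174 and 149. PDK4, which restrains pyruvate oxidation, was at 1.12 and 1.57 FPKM against 6.11 and 3.25.

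Autophagy genes had a median near 0 (-0.11 at 24 h and -0.02 at 48 h) and 5 of 36 members at least 1.5-fold higher with the 76 3P extract at both times, against 1.57% of all genes. At 48 h 9 were higher with it, against 11.5%, and 1 with the 74 3NP extract. LAMP3 (chromosome 3, 183122215 to 183163839), a stress-induced lysosomal membrane protein, was at 1.5 and 0.755 FPKM with the 74 3NP extract, 8.36 and 9.6 with the 76 3P extract and 3.4 and 1.5 in the controls. Its mean difference was -2.25 (limma SE 0.25, adjusted p 0.058). WIPI1, GABARAPL1, ULK1 and MAP1LC3B, which act in starting and building autophagosomes, were the other 4. WIPI1 was at 4.41 and 4.75 FPKM against 8.69 and 16.1, and ULK1, the starting kinase, at 16.3 and 16.7 against 29.4 and 31.6. UNC5B, a netrin receptor, was outside these lists, at 8.53 and 4.92 FPKM against 15.3 and 43.8.

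**Figure D5:**
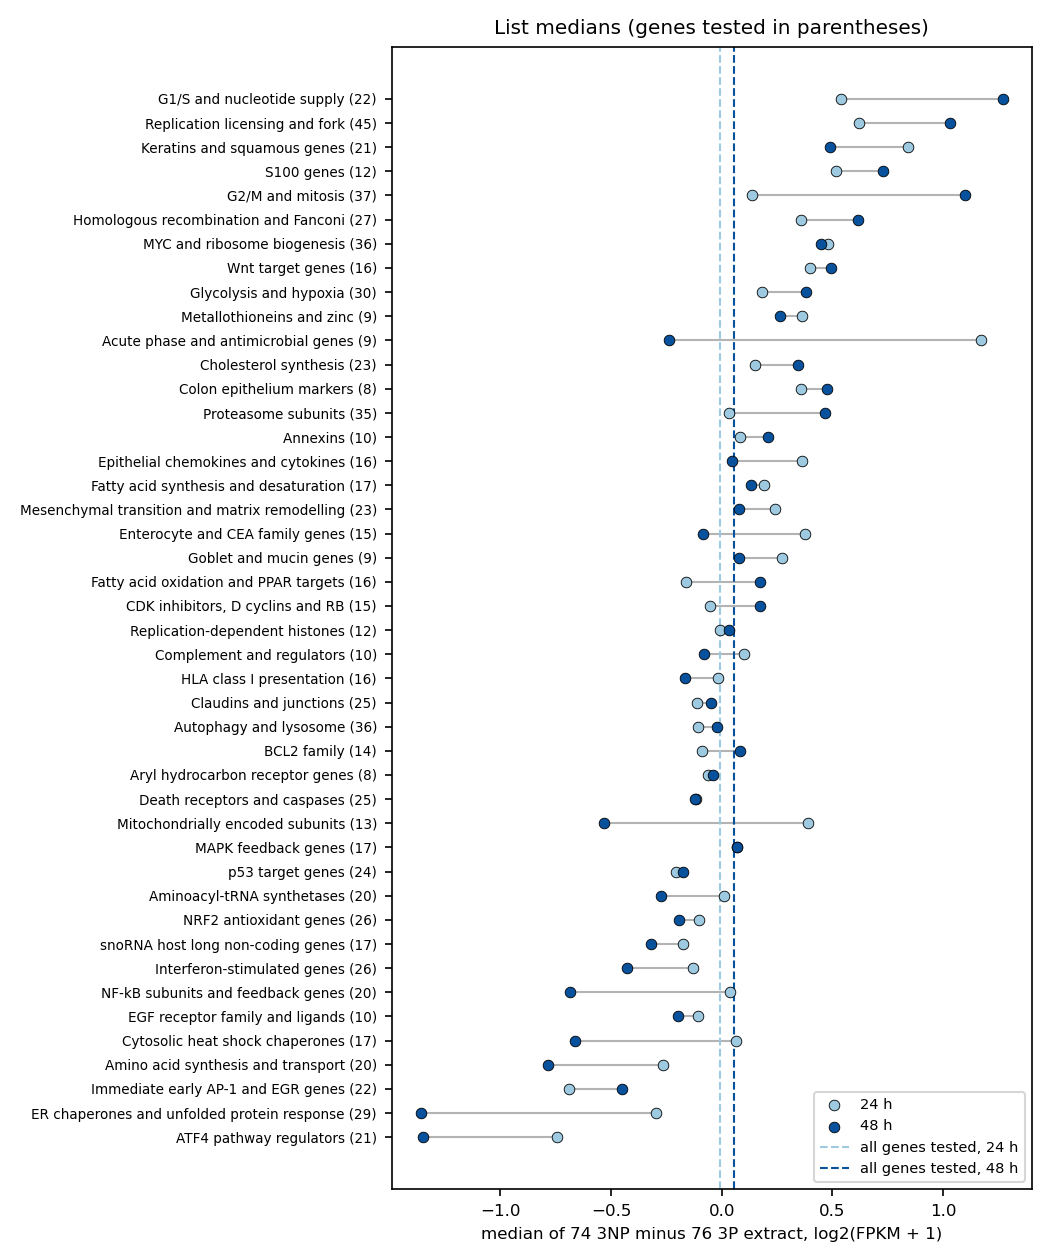
Median difference between the extracts, 74 3NP minus 76 3P on the log2(FPKM + 1) scale, for each gene list at 24 h (light) and 48 h (dark), with the number of tested genes in parentheses and the medians of all genes as dashed lines. ER genes go from -0.30 to -1.36 and G2/M genes from 0.14 to 1.10, while MYC and ribosome biogenesis genes lie close together.

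The genes whose difference changed most between the times were named by that change, so their values are a description. With the 74 3NP extract TXNIP, an inhibitor of thioredoxin and glucose uptake, was at 16.4 and 36.7 FPKM, and with the 76 3P extract at 62.4 and 5.56. ARRDC4, an arrestin of the same family, was at 6.97 and 6.17 FPKM against 25.5 and 2.32. CCN2, a matrix protein and YAP target, was at 15.7 and 23.9 FPKM against 63.8 and 10.5. These 3 genes were above the control at 24 h and below it at 48 h with the 76 3P extract, as the controls held 14.5 and 25.6 FPKM of TXNIP, 4.09 and 5.33 of ARRDC4 and 21.9 and 41.4 of CCN2. NDUFA4L2, a hypoxia-induced mitochondrial protein, was high in the 74 3NP 48 h library alone, at 32.7 FPKM against 1.55 at 24 h and 3.79 and 6.44 with the 76 3P extract.

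In the other direction, BHLHA15, a transcription factor of secretory cells known as MIST1, was at 4.73 and 3.72 FPKM with the 74 3NP extract and 1.45 and 36.5 with the 76 3P extract. PADI3, a protein-citrullinating enzyme, was at 5.99 and 5.43 FPKM against 0.245 and 10.2, with controls at 0.0433 and 0.233. ARC was at 15.9 and 12.8 FPKM against 4.04 and 36.7. For PADI3 and ARC the 76 3P library was at or near the control level at 24 h and above the 74 3NP libraries at 48 h. U2AF1L5, named by the same rule, is a near-identical copy of U2AF1, and its values of 0.538 and 3.5 FPKM against 3.82 and 0.519 are uncertain.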

How the data were processed

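RNA of each treatment and time was sequenced as 1 library. Per the submitters' processing notes reads were mapped with HISAT2 2.0.5 to GRCh38, also named hg38. Counting tool, annotation, strand and layout: not given in the sources used here. Thus genes that overlap on opposite strands may share reads. The authors deposited FPKM values for 60796 genes with gene lengths. Another deposited table holds, per the file headers, read counts before and after filtering, and quality and GC as percent. FPKM times gene length gave whole reads for 100% of values within 0.01 reads, and exact 95% intervals of read ratios cover counting error only.

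Genes reaching FPKM 1 in any 2 of the 8 libraries were tested on log2(FPKM + 1) with limma 3.58.1 in R 4.3.3. Treatment and time entered additively over all 8 libraries, with the trend option for variances. The spread is thus pooled over 4 treatments and comes from how treatment differences varied between the times. Time is the block of the fit, and the 2 times of a treatment were numbered as its replicates here. P-values are two-sided and adjusted by Benjamini-Hochberg over all 13388 genes. The script was tested on simulated data. Named genes were the 12 highest and 12 lowest protein-coding genes with mean FPKM of 2 or more and 1.5-fold at both times, up to 8 per list, and the 5 whose difference changed most between the times in each direction. Not every gene that the rule names is described, and a few are not reported here. Genes, lists and rules were chosen with earlier results of these data known. Alternatives were other pseudocounts, filters, scalings and fits, and each library left out.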

Additional observations from a re-analysis of the deposited data

Results flagged for a closer look

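For these results the 74 3NP minus 76 3P difference on the log2(FPKM + 1) scale had opposite signs at 24 h and 48 h. For single genes both differences were at least 1.5-fold, and for list medians both were at least 0.1. Each is 1 library against 1 library, so the change between the times was not tested, and every 48 h value uses the 76 3P 48 h library, which stood apart. The list medians were 0.391 and -0.534 for mitochondrially encoded subunits, 1.17 and -0.237 for acute phase and antimicrobial genes, and -0.16 and 0.174 for fatty acid oxidation and PPAR targets. Higher with the 74 3NP extract at 24 h and lower at 48 h were HSPA6 at 0.65 and -7.67, BHLHA15 at 1.23 and -2.99, PADI3 at 2.49 and -0.81, ARC at 1.74 and -1.45, PGLYRP4 at 0.66 and -1.76, SNAI1 at 0.69 and -2.39, and EREG at 0.62 and -2.21. The other way round were TXNIP at -1.87 and 2.52, U2AF1L5 at -1.65 and 1.57, NDUFA4L2 at -0.91 and 2.18, CCN2 at -1.95 and 1.12, and ARRDC4 at -1.73 and 1.11. The first value of each pair does not use that library. Several of these genes were named for how much their difference changed.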

How the results depend on the processing

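No gene passed the limma test, and none did under other pseudocounts, scalings, the fit without the variance trend, the fit to the 4 extract libraries or no filter. A filter at FPKM 5, which tests 8059 genes, called 16, and limma voom called 15. Leaving out 1 library at a time gave 0 to 79 calls, with 79 without the 76 3P 24 h library and 4 without the 76 3P 48 h library. The lone library of an extract is then assumed to vary like the other groups. The 2 libraries of a treatment are its 2 times, and without time as a block 0 genes were called. The 308 genes higher with the 74 3NP extract became 494 at a pseudocount of 0.1 and 111 at 5. The 210 higher with the 76 3P extract became 471, 52 and, at the FPKM 5 filter, 119. Of 484 alternative list medians, 114 moved by at least the SD between the 24 h and 48 h medians of the list. A change of sign was looked for only in lists with the same sign at both times and a median past a size limit. Among those 0 changed sign, and lists with opposite signs at the 2 times were not checked. Named genes whose difference had opposite signs at 24 h and 48 h, such as HSPA6 and TXNIP, were left out of the next count. Of 3731 alternative differences of the 287 other named genes, 21 changed sign and the cause was not tested. One was MUC13 at -0.0153 under quantile normalization. The others came from leaving out a library, with these ranges of the difference: MT1X -0.0248 to 0.74, RBL2 -0.60 to 0.0377, BAX -0.052 to 0.99, BCL2L1 -0.0734 to 0.66, MT-ND6 -0.66 to 0.0246, SLPI -1.05 to 0.0172, C4BPB -0.0525 to 0.46, S100A4 -0.0624 to 1.75, FCGBP -0.15 to 0.70, MUC13 -0.16 to 0.30, ANGPTL4 -1.73 to 0.0518, INSIG1 -0.096 to 1.04, H1-2 -0.0379 to 0.26, PSMC3 -0.0262 to 0.97, PSMD14 -0.0392 to 0.95, PSMA7 -0.041 to 0.93, DANCR -0.0321 to 0.89. Depth limits genes with few reads, such as KRT6B with the 76 3P extract.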
